A study of Homo sapiens with 26 samples.

Results

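The 10 genes GATA1, GATA2, KLF1, TAL1, LMO2, LDB1, NFE2, GFI1B, ZFPM1 and CBFA2T3, which encode the core transcription factors and cofactors of red cell development, were followed across 25 RNA sequencing libraries of TF-1 cells. They were taken by gene identity, as the rows of the deposited count table whose Ensembl identifiers carry these names, and all 10 were found among 57773 genes. TF-1 is an established human erythroleukemia cell line that needs the cytokine GM-CSF to grow. The study set clones that lack TET2, which oxidises methylated cytosines, beside clones wild type for it, and asked how gene expression responds to 5-azacytidine (Aza), a cytidine analogue that lowers DNA methylation. Knockout (KO, TET2 -/-) cells came from clones F4 and A12 and wild-type (WT) cells from clones A7 and C4, so each genotype rests on 2 clones of the same line. Cells received 200 nM Aza in DMSO on 3 consecutive days or DMSO alone, and were harvested 72 h or 264 h after the first dose. A further harvest preceded treatment.

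Batch 1 gave 2 libraries, 1 per clone, for each genotype before treatment and for each agent at 72 h and 264 h. The exception was KO DMSO at 72 h, where the F4 library is marked as failing sequencing quality control and was left out. Batch 2 added KO DMSO libraries of both clones at 72 h and 264 h, and 2 KO libraries labelled as pre-treatment and DMSO together, which were kept as a group of their own. KO DMSO therefore held 3 libraries at 72 h and 4 at 264 h. Clone F4 in Aza at 72 h has its DMSO partner in batch 2 alone.

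GATA1 and GATA2 are zinc-finger factors that bind the same short DNA motif, and red cell maturation is known for a switch in which GATA1 takes the place of GATA2 at many sites. GATA1 works in a complex with the helix-loop-helix factor TAL1, the bridging protein LMO2 and the adaptor LDB1, while KLF1 switches on globin and membrane genes and NFE2 acts at the globin locus control region. GFI1B and the corepressor CBFA2T3 (ETO2) hold genes down within the same network, and ZFPM1 (FOG1) is the cofactor that GATA1 needs at many of its targets.

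Promoter sequences are shown for 4 members called in opposite directions in Aza at 72 h. RefSeq promoter windows, 250 bases before to 50 bases after an annotated gene start in GRCh38.p14, were found for 8 of the 10 members, 11 windows in all; LMO2 and NFE2 had none. The first set belongs to KLF1 and GFI1B, the members with the largest rises in KO, with capitals marking matches to a GATA-type motif (AGATAA and AGATAG, and the same with T as first letter, that is TGATAA and also TGATAG, on either strand).
KLF1 promoter window, chr19:12887152-12887451, minus strand: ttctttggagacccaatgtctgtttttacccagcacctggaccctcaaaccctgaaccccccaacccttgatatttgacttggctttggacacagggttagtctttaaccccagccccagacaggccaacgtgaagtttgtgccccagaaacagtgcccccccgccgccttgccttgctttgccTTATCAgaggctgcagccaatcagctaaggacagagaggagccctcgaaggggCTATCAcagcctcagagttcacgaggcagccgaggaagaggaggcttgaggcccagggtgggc
GFI1B promoter window, chr9:132945281-132945580, plus strand: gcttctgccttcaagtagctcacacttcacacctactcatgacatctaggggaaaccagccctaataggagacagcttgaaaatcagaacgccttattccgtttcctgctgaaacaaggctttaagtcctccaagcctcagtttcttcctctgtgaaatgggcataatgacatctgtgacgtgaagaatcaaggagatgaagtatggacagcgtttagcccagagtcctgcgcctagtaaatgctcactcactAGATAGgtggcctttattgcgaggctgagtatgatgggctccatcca
GFI1B promoter window, chr9:132978444-132978743, plus strand: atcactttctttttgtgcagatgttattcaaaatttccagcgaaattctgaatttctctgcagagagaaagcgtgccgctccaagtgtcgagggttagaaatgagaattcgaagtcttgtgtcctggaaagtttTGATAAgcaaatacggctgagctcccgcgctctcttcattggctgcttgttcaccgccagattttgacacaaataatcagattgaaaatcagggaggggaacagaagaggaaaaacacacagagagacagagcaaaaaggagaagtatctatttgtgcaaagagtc
KLF1 held 2 such matches and each GFI1B window 1. The upstream TAL1 window held 1, and the windows of GATA1, GATA2, LDB1, ZFPM1 and CBFA2T3 held none of these letters. Of 35116 RefSeq windows, 25% held at least 1 match.

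The second set belongs to ZFPM1 and CBFA2T3, the members called lower in both genotypes, with capitals marking CpG dinucleotides, the sites that DNA methyltransferases act on.
ZFPM1 promoter window, chr16:88453030-88453329, plus strand: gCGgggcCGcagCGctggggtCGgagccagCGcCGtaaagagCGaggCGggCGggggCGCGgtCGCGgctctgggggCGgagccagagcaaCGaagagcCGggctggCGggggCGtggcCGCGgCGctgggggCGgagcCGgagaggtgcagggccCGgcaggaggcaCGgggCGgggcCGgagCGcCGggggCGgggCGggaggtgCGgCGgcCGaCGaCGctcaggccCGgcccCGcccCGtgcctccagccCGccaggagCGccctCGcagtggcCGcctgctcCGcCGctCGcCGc
CBFA2T3 promoter window, chr16:88941301-88941600, minus strand: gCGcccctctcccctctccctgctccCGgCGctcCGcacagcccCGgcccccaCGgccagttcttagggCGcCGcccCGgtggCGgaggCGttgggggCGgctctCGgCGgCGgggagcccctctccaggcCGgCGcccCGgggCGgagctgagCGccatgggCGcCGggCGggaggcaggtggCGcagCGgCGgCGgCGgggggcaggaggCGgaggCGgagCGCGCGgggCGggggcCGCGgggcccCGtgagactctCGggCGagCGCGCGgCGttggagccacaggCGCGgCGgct
ZFPM1 had 47 CpG and CBFA2T3 46, at percentiles 97.6 and 97.1 of all windows, where the median was 14. KLF1 had 6 and the GFI1B windows 6 and 9. Among other members that rose in Aza, TAL1 had windows with 19 and 30 CpG, LDB1 a window with 13 and GATA1 a window with 7. GATA2, called lower in WT, had windows with 22 and 29 CpG. NF-E2 type matches (TGAGTCA, in 4.95% of windows) were in none of the 11. KLF-type matches (CCNCNCCC, in 56.2%) numbered 9 in ZFPM1, 7 and 3 in the GATA2 windows, 4 each in CBFA2T3, GATA1 and LDB1, 2 in a TAL1 window, 1 in a GFI1B window and 0 in KLF1, and some overlap each other. E-box matches (CAGNTG, in 49.9%) numbered 3 in a GATA2 window and 1 each in KLF1, CBFA2T3 and both GFI1B windows. These matches describe letters in RefSeq windows, and binding or methylation was not measured in these files.

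Libraries held 24992192 to 40187322 counts, and the lowest count of any member in any of the 25 was 647, so counting error is small beside the differences between libraries. Nothing in the labels says that libraries of a clone came from separate cultures, and p-values measure the spread between these libraries. TET2 RNA was present in KO at 33.5 ± 6.54 CPM (counts scaled to library size; SD, n = 15) and in WT at 27.9 ± 2.28 CPM (n = 10), so the count over its exons is no check of the knockout, and genotypes follow the labels. All 10 listed erythroid markers had counts in every group, at 1580 to 6260 CPM in sum. At 264 h in WT most of this sum was TFRC, the transferrin receptor. Its mean was 4710 CPM in Aza, where the sum was 5760 to 6260 CPM, and 3260 CPM in DMSO, where it was 3570 to 3950 CPM. Other markers spanned a wide range. SLC4A1 was at 1.27 CPM in WT DMSO at 264 h and ALAS2 at 2.08 CPM in KO DMSO at 72 h. HBA2, an alpha-globin gene, was at 65.2 CPM in KO DMSO at 72 h and at 380 CPM in WT Aza at 264 h. Libraries of a clone deviated together from their groups (r 0.549 to 0.609 in KO and 0.458 to 0.516 in WT after treatment, over 3000 variable genes), but the WT pre-treatment libraries deviated opposite to later libraries with the same clone label (r -0.514 to -0.474). Results that use those libraries are given with and without them where they moved.

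GATA2 was the most abundant member per length of transcript, with a median of 156 CPM per kb of exon (range 91.2 to 242 over 25 libraries), and LDB1 followed at 113. KLF1 and GATA1 stood at 69.3 and 67.5 CPM per kb with overlapping ranges, and LMO2, NFE2 and TAL1 at 50.4, 47.7 and 44.2, also overlapping. CBFA2T3, GFI1B and ZFPM1 were the least abundant, at 18.9, 15.9 and 12.7. On this scale even ZFPM1 lay at percentile 79.8 of tested genes, and GATA2 at percentile 98.8. KLF1 varied most in range, 3.6-fold between its lowest and highest library, and LDB1 least, 1.67-fold. Exons of TAL1 share 845 of 5706 bases with an antisense gene, and exons of CBFA2T3 501 of 5972; counting used no strand option, so those reads cannot be told apart. The other 8 members share no exon bases with another gene.

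**Figure D1:**
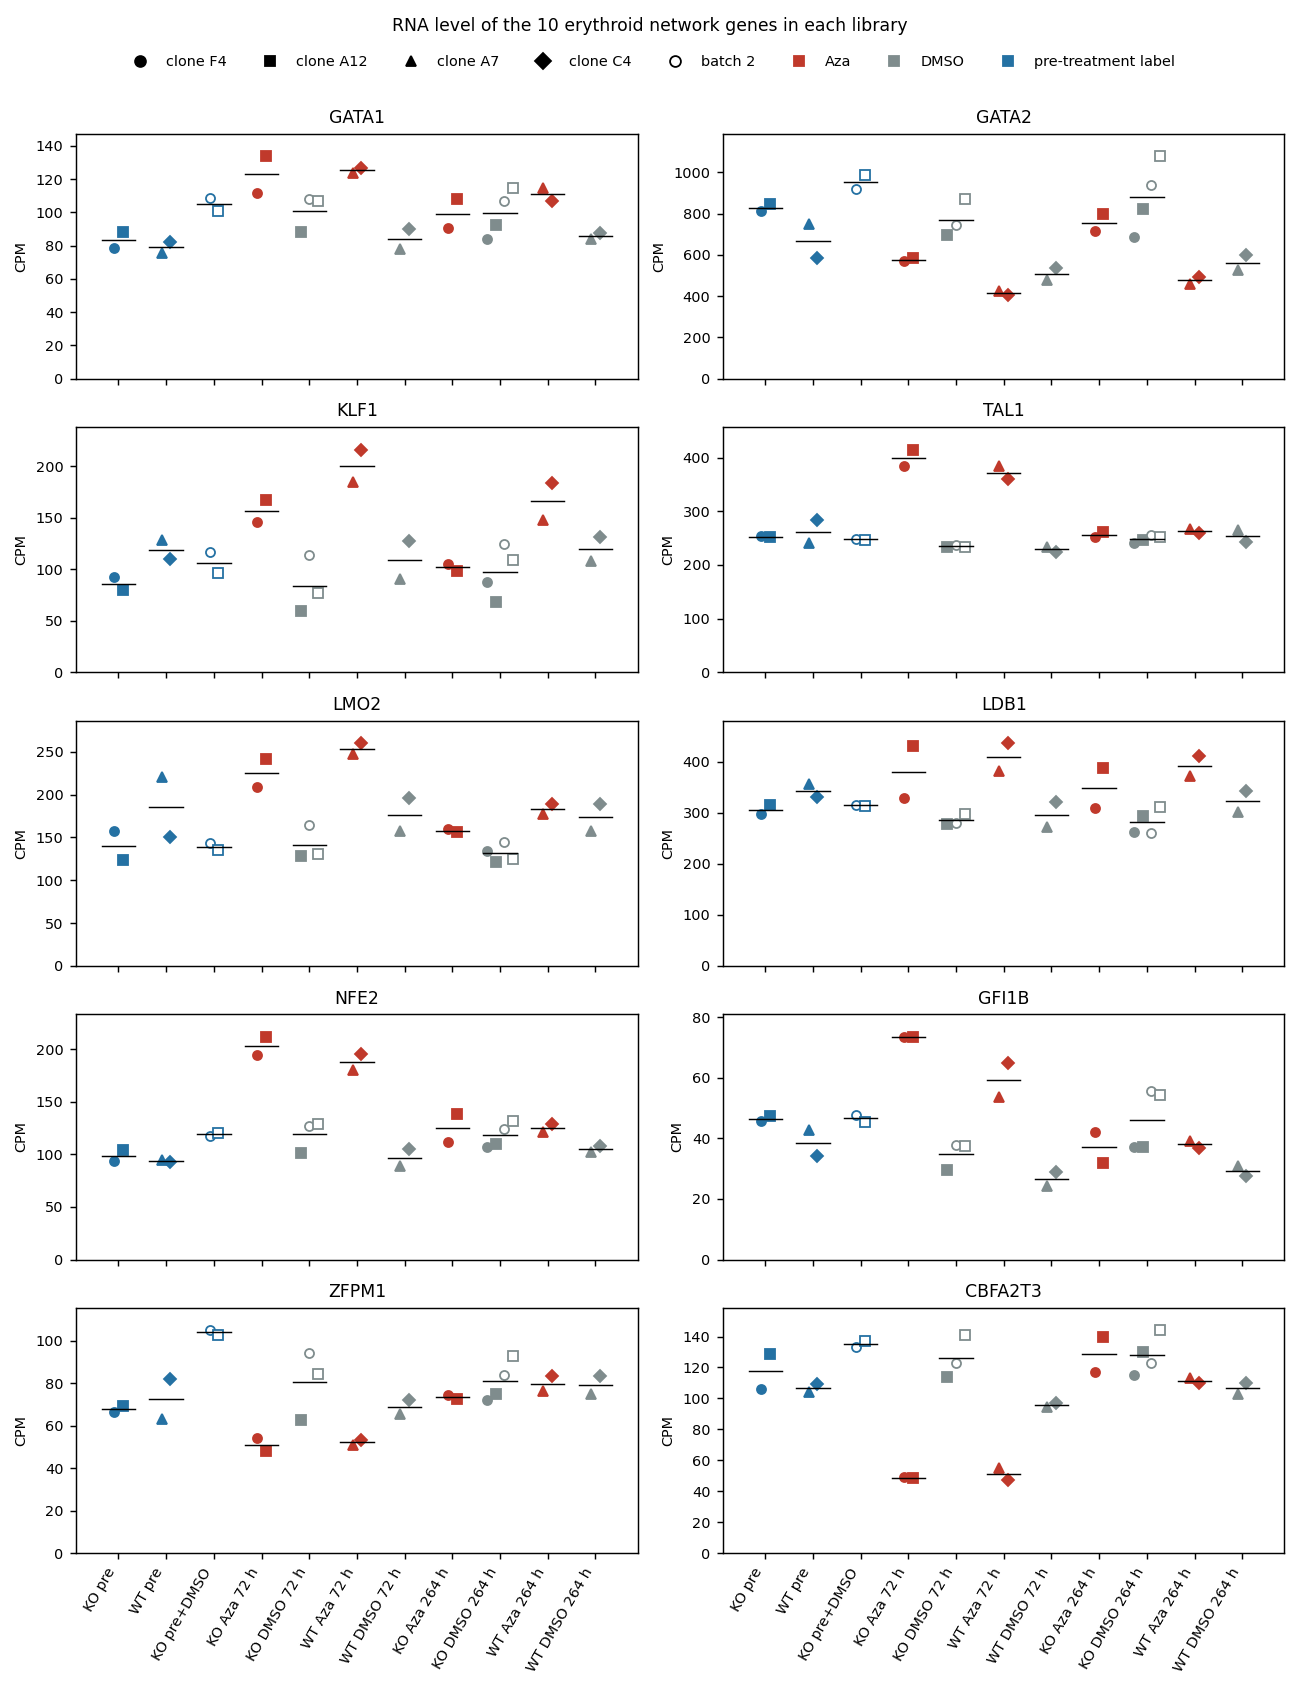
CPM of each member in each of the 25 libraries, with 1 panel per gene, groups along the horizontal axis and CPM on the vertical axis from 0; symbols give the clone, open symbols batch 2, colours the treatment and short lines the group mean. In Aza at 72 h CBFA2T3 sat at 47.3 to 55 CPM in all 4 libraries, below every other library, while TAL1 sat at 360 to 415 CPM, above every other library.

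At 72 h Aza moved the network in both genotypes. Relative to DMSO, 7 members rose and 2 fell in KO cells, and 6 rose and 3 fell in WT cells, by edgeR's quasi-likelihood test with Benjamini-Hochberg adjusted p under 0.05 over 18391 genes. The background was high: 20.1% of all tested genes were called in KO (11.6% higher, 8.47% lower) and 18.3% in WT (9.26% higher, 9.04% lower). The members' median log2 difference was 0.63 in KO and 0.55 in WT, beside 0.01 and 0.00 for all tested genes. Libraries of the groups did not overlap for any of the 10 members in either genotype, where 35.2% of all tested genes did not overlap in KO and 53.2% in WT. In bulk RNA, fewer cells of a type and less RNA per cell cannot be told apart.

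Positions of whole genes are given in hg19, unlike the promoter windows above, which are in GRCh38.p14. Among the GATA factors, GATA1 (chromosome X, 48644962 to 48652716) is the master factor of red cell maturation. GATA1 was at 112 CPM in F4 and 134 CPM in A12 in KO Aza, against 88.3, 107 and 108 CPM in KO DMSO. In WT it was at 124 and 127 CPM in Aza, against 78.1 and 89.8 CPM in DMSO. Every Aza library lay above every DMSO library of its genotype, by a wide step in WT and a narrow one between F4 in Aza and the batch 2 DMSO libraries. GATA1 differed by 0.53 on the log2 scale (SE 0.08, adjusted p = 5.41e-05, edgeR) in KO and 0.58 (SE 0.08, adjusted p = 7.84e-06, edgeR) in WT. In KO the call was lost without clone A12 (log2 0.39, adjusted p = 0.227, edgeR) and with the failed library added (0.10, adjusted p = 0.762, edgeR), which also ended the WT call (adjusted p = 0.126, edgeR).

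GATA2 (chromosome 3, 128198270 to 128212028), the factor of stem and early progenitor cells, was at 569 and 584 CPM in KO Aza against 697, 746 and 870 CPM in KO DMSO. In WT it was at 426 and 407 CPM in Aza and at 477 and 539 CPM in DMSO. Aza libraries were the lower ones in both genotypes with no overlap. The WT difference was called (log2 -0.29, SE 0.10, adjusted p = 0.0432, edgeR) and the KO one, fitted with the batch term, was not (log2 -0.14, SE 0.10, adjusted p = 0.359, edgeR). The WT call was lost under 6 of 13 other settings, with log2 values of -0.42 to -0.17 over all 13. In a fit of the KO groups alone GATA2 was called, at -0.23 (adjusted p = 0.0372, edgeR), and without A12 its value was 0.04 (adjusted p = 0.976, edgeR).

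Set against each other per kb of exon, GATA1 stayed below GATA2 in all 25 libraries, and within each genotype the gap was narrowest in Aza at 72 h. The log2 ratio of GATA1 to GATA2 was -0.77 and -0.55 in KO Aza against -1.41, -1.45 and -1.21 in KO DMSO at that time, and -0.21 and -0.10 in WT Aza against -1.04 and -1.01 in WT DMSO. Aza libraries were higher in each genotype with no overlap. At 264 h the ratio was -1.41 and -1.31 in KO Aza and between -1.66 and -1.46 in KO DMSO, while WT had -0.42 and -0.64 in Aza and -1.07 and -1.20 in DMSO. The Aza libraries still lay above the DMSO ones without overlap, by a narrow margin in KO and a wider one in WT. Before treatment the ratio averaged -1.74 in KO and -1.50 in WT (n = 2 each). The ratio is a description from the levels given and was not tested.

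**Figure D2:**
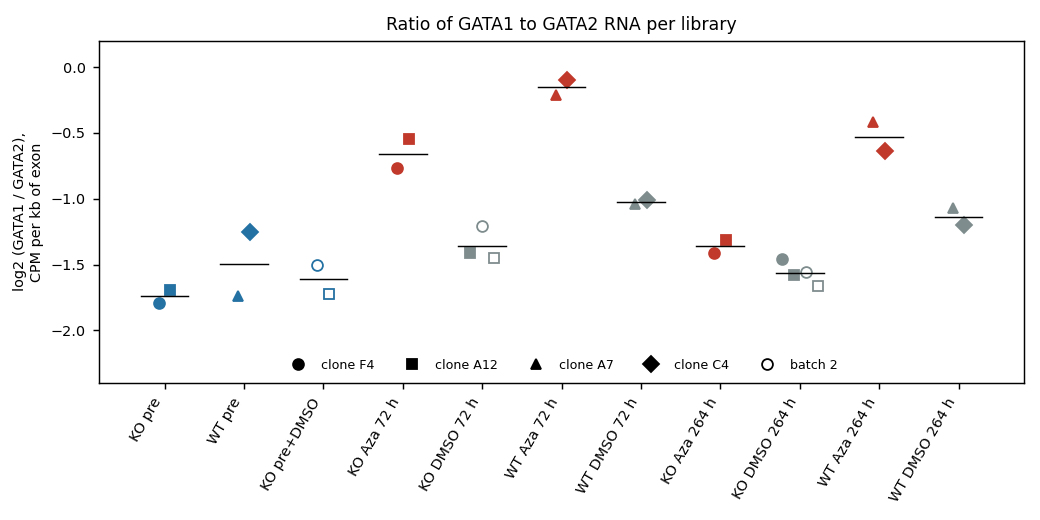
Log2 ratio of GATA1 to GATA2, each in CPM per kb of exon, for each library on the vertical axis, with groups along the horizontal axis; symbols give the clone, open symbols batch 2, short lines group means. WT Aza libraries at 72 h come closest to 0, at -0.21 and -0.10, and KO Aza libraries at 264 h lie at -1.41 and -1.31.

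KLF1 (chromosome 19, 12995237 to 12997995), the activator of adult beta-globin and many membrane genes, was at 146 CPM in F4 and 167 CPM in A12 in KO Aza, against 59.9 and 77.2 CPM in A12 and 114 CPM in F4 in KO DMSO. WT had 185 and 216 CPM in Aza and 90.4 and 127 CPM in DMSO. Aza libraries were higher in both genotypes, and F4 in DMSO stood well above A12 in DMSO. The log2 difference was 1.30 (SE 0.17, adjusted p = 0.000137, edgeR) in KO and 0.89 (SE 0.16, adjusted p = 0.00166, edgeR) in WT. Within clones, from CPM without the batch term, A12 was higher by 1.48 against its batch 1 DMSO library and 1.12 against its batch 2 library, and F4 by 0.35 against its batch 2 library. Without A12 the KO value was 0.83 and was not called (adjusted p = 0.253, edgeR).

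Of the partners that carry GATA1, TAL1 and LDB1 rose in both genotypes and LMO2 in KO. TAL1 (chromosome 1, 47681962 to 47697892), its helix-loop-helix partner, was at 384 and 415 CPM in KO Aza against 234, 234 and 238 CPM in KO DMSO, and at 384 and 360 CPM in WT Aza against 234 and 224 CPM in WT DMSO. The libraries of each condition lay tightly together and the conditions far apart. TAL1 differed by 0.80 on the log2 scale (SE 0.07, adjusted p = 1.27e-08, edgeR) in KO, not called without A12 (0.76, adjusted p = 0.0502, edgeR), and 0.70 (SE 0.07, adjusted p = 5.41e-08, edgeR) in WT.

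LMO2 (chromosome 11, 33880122 to 33913836), the LIM-only protein that bridges TAL1 and GATA1, was at 209 and 241 CPM in KO Aza against 128, 131 and 165 CPM in KO DMSO. WT had 247 and 260 CPM in Aza and 157 and 196 CPM in DMSO. Aza libraries were higher in both genotypes with no overlap. The KO difference was called (log2 0.73, SE 0.18, adjusted p = 0.0145, edgeR) and the WT one was not (log2 0.52, SE 0.17, adjusted p = 0.0573, edgeR). The KO call was lost without F4, without A12 and in batch 1 alone. In WT DESeq2 called it (0.52, adjusted p = 0.0217, DESeq2), as did edgeR with the WT pre-treatment libraries left out (0.53, adjusted p = 0.000374, edgeR).

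LDB1 (chromosome 10, 103867317 to 103880210), which ties such complexes together and links enhancers to promoters, was at 328 and 431 CPM in KO Aza against 278, 297 and 280 CPM in KO DMSO. WT had 381 and 436 CPM in Aza and 271 and 321 CPM in DMSO. Aza libraries were higher again, with the KO clones further apart in Aza than in DMSO. The log2 difference was 0.48 in KO (SE 0.09, adjusted p = 0.000409, edgeR) and 0.47 in WT (SE 0.08, adjusted p = 0.00036, edgeR), and the KO call was lost without A12 (0.19, adjusted p = 0.58, edgeR). The WT call was lost with the failed library added (adjusted p = 0.0531, edgeR).

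NFE2 and GFI1B gave rises that stayed called under each of the 13 other settings in both genotypes. NFE2 (chromosome 12, 54685895 to 54694905), the large subunit of the factor that binds globin enhancers, was at 195 and 212 CPM in KO Aza against 101, 127 and 129 CPM in KO DMSO, and at 180 and 196 CPM in WT Aza against 88.7 and 105 CPM in WT DMSO. All 4 Aza libraries were above all 5 DMSO libraries. NFE2 rose by 0.99 on the log2 scale (SE 0.08, adjusted p = 1.28e-09, edgeR) in KO and 0.96 (SE 0.07, adjusted p = 8.9e-10, edgeR) in WT. GFI1B (chromosome 9, 135820932 to 135867083), a zinc-finger repressor needed for red cells and platelets, was at 73.3 and 73.5 CPM in KO Aza against 29.6, 37.3 and 37.9 CPM in KO DMSO, and at 53.5 and 64.7 CPM in WT Aza against 24.3 and 28.9 CPM in WT DMSO. It had the largest fitted rise of the members in each genotype, with no overlap. In KO KLF1 was close to it, at 1.30 (SE 0.17). Within A12, from CPM, KLF1 rose more than GFI1B, by 1.48 against 1.31 with the batch 1 DMSO library and 1.12 against 0.98 with that of batch 2. Within F4 GFI1B rose more, by 0.95 against 0.35. GFI1B rose by 1.39 on the log2 scale (SE 0.13, adjusted p = 5.66e-07, edgeR) in KO and 1.15 (SE 0.13, adjusted p = 3.71e-06, edgeR) in WT.

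The cofactors ZFPM1 and CBFA2T3 fell in both genotypes. CBFA2T3 (chromosome 16, 88941266 to 89043612), the corepressor that restrains TAL1 and GATA1 target genes, was at 49.1 and 48.6 CPM in KO Aza against 114, 123 and 141 CPM in KO DMSO. In WT it was at 55 and 47.3 CPM in Aza and at 94.7 and 97.3 CPM in DMSO. The 4 Aza libraries lay close to each other whatever the genotype, far below DMSO. The log2 difference was -1.21 (SE 0.08, adjusted p = 2.94e-10, edgeR) in KO and -0.91 (SE 0.08, adjusted p = 1.14e-08, edgeR) in WT, called under each of the 13 other settings in both, at -1.30 to -1.14 in KO and -1.05 to -0.79 in WT.

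ZFPM1 (chromosome 16, 88519725 to 88603424), the GATA1 cofactor, was at 54.3 and 47.9 CPM in KO Aza against 62.8, 84.4 and 94.4 CPM in KO DMSO. In WT it was at 51.1 and 53.3 CPM in Aza and at 65.5 and 72 CPM in DMSO. Aza libraries were the lower ones with no overlap, and in KO the batch 2 DMSO libraries were well above the batch 1 library. The log2 difference was -0.41 (SE 0.09, adjusted p = 0.00183, edgeR) in KO, lost without A12 (-0.59, adjusted p = 0.0871, edgeR), and -0.39 (SE 0.08, adjusted p = 0.00155, edgeR) in WT.

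**Figure D3:**
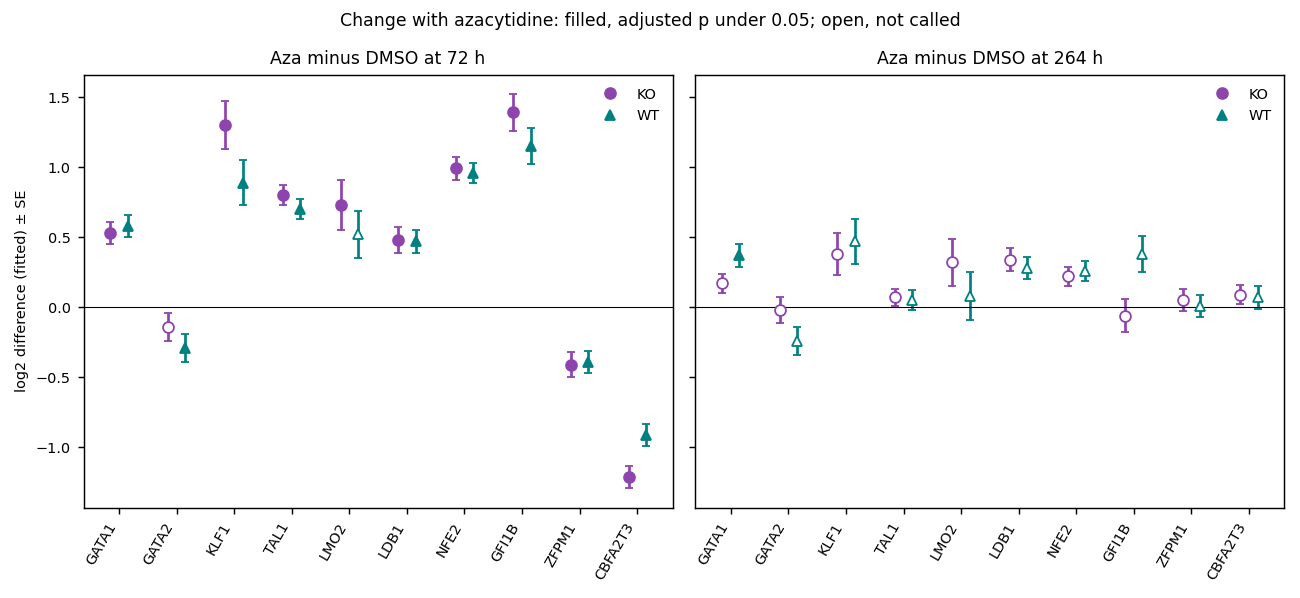
Fitted log2 difference Aza minus DMSO with its SE for each member, at 72 h on the left and 264 h on the right; circles are KO and triangles WT, filled where the adjusted p was under 0.05. At 72 h GFI1B stands highest, at 1.39 in KO and 1.15 in WT, and CBFA2T3 lowest, at -1.21 and -0.91; at 264 h GATA1 in WT, at 0.37, is the 1 filled symbol.

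The batches can be set apart within A12 alone, from CPM without the fitted batch term. F4 in Aza has its DMSO partner in batch 2 only. Against its batch 2 DMSO library, F4 in Aza had log2 differences of 0.05 for GATA1, 0.69 for TAL1, 0.34 for LMO2, 0.23 for LDB1, 0.62 for NFE2 and 0.95 for GFI1B, and of -0.39 for GATA2, -0.80 for ZFPM1 and -1.33 for CBFA2T3. A12 in Aza against its batch 1 DMSO library had 0.60 for GATA1, 0.83 for TAL1, 0.92 for LMO2, 0.63 for LDB1, 1.07 for NFE2 and 1.31 for GFI1B, and -0.26 for GATA2, -0.39 for ZFPM1 and -1.23 for CBFA2T3. All 10 members had 1 sign in F4 and in A12 against either of its DMSO libraries, with GATA1 in F4 near 0. The F4 values set batch 1 Aza against batch 2 DMSO, so batch and treatment cannot be told apart in them. In the fit without A12, which holds the batch term, the GATA2 value given above had the other sign. Against its batch 2 library, A12 had 0.32 for GATA1, 1.12 for KLF1, 0.83 for TAL1, 0.88 for LMO2, 0.53 for LDB1, 0.72 for NFE2 and 0.98 for GFI1B. On the lower side it had -0.58 for GATA2, -0.82 for ZFPM1 and -1.53 for CBFA2T3. The values of GATA1, KLF1, LMO2, LDB1, NFE2, GFI1B and ZFPM1 were nearer to those of F4 than the batch 1 values were. Those of GATA2 and CBFA2T3 were further from them, and that of TAL1 was the same.

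The members called lower in both genotypes are also the longest and lie near each other. CBFA2T3 spans 102 kb and ZFPM1 83.7 kb, 338 kb apart on chromosome 16, while the other 8 members span 2.76 to 46.2 kb. Calls over all tested genes were also counted by span in Aza at 72 h. Of 3490 genes over 80 kb, 25.8% were called lower in KO and 27.6% in WT, beside 3.22% and 3.02% of 8915 genes under 20 kb. These span limits were chosen after the members' values were seen. Other tested genes within 2 Mb of CBFA2T3 numbered 71, of which 10 were called higher and 19 lower in KO and 9 higher and 13 lower in WT, with medians of -0.01 and 0.02. The 72 other tested genes around ZFPM1, in a window that overlaps the first, gave the same counts. Their medians were -0.01 in KO and 0.04 in WT. Of all tested genes 11.6% were called higher and 8.47% lower in KO, and 9.26% and 9.04% in WT. Among the other members GFI1B, the longest at 46.2 kb, had the largest fitted rise, and GATA2, at 13.8 kb, was called lower in WT. The part of gene span and position in the direction of CBFA2T3 and ZFPM1 was not tested.

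**Figure D4:**
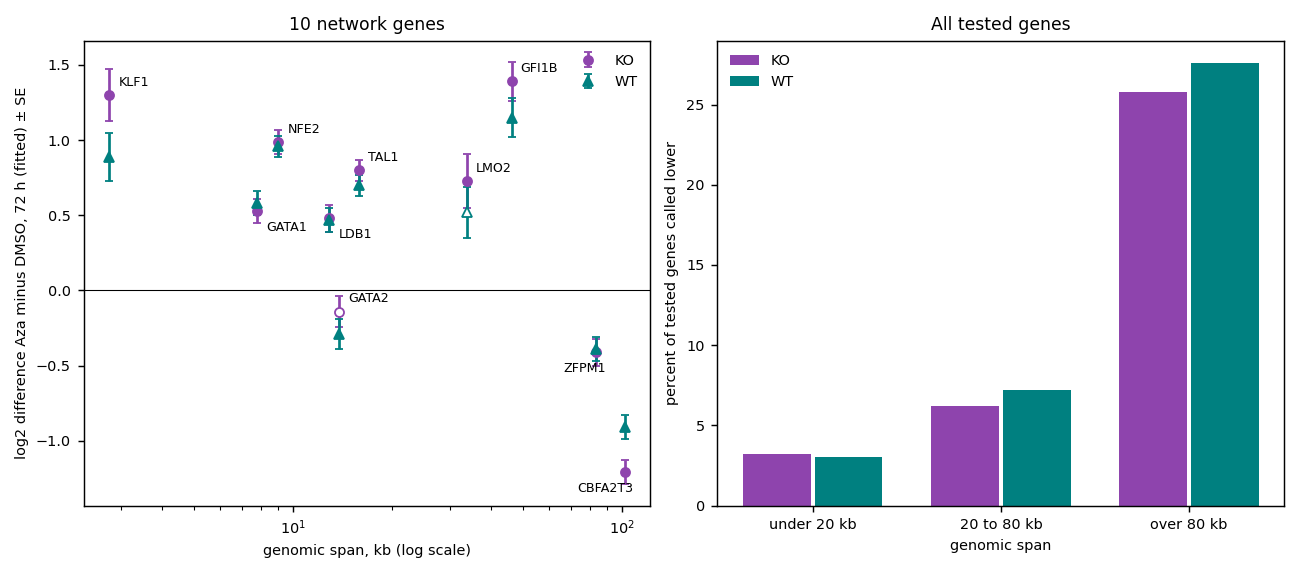
Left, fitted log2 difference Aza minus DMSO at 72 h with its SE against genomic span in kb on a log axis, for each member in KO (circles) and WT (triangles), filled where called. Right, percent of all tested genes called lower in 3 span classes. CBFA2T3 at 102 kb and ZFPM1 at 83.7 kb stand at the long end below 0, and 25.8% of genes over 80 kb were called lower in KO and 27.6% in WT.

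By 264 h most of these differences were no longer called. In KO, Aza minus DMSO called 0 of the 10 members (edgeR; 0.0979% of all genes called; 1188 of 18391 with an unadjusted p under 0.05). DESeq2 called LDB1 (0.34, adjusted p = 0.0464, DESeq2). With the WT pre-treatment libraries left out edgeR called LDB1 too, when 88 of 18304 genes were called. LDB1 was at 309 and 387 CPM in KO Aza and between 260 and 311 CPM in KO DMSO, so the groups overlapped by a narrow margin (log2 0.34, SE 0.08, adjusted p = 0.179, edgeR). CBFA2T3 was at 117 and 140 CPM in KO Aza, within the 115 to 144 CPM of KO DMSO, and TAL1 at 252 and 261 CPM, close to the 240 to 255 CPM of KO DMSO. Groups did not overlap for 1 of the 10 members, LMO2, at 160 and 156 CPM in KO Aza and between 121 and 145 CPM in KO DMSO, where 10.4% of all tested genes did not overlap. GFI1B was at 42.2 and 31.8 CPM in KO Aza against 37, 37.2, 54.2 and 55.6 CPM in KO DMSO, where the higher values are those of batch 2.

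In WT at 264 h GATA1 was the 1 member called, beside 0.500% of all genes called either way and 0.364% called higher. It was at 115 and 107 CPM in Aza against 84.3 and 87.9 CPM in DMSO (log2 0.37, SE 0.08, adjusted p = 0.0288, edgeR), with both Aza libraries above both DMSO libraries. The call was lost under 5 of 13 other settings, with log2 values of 0.27 to 0.44 over all 13. Other settings called more members. With the WT pre-treatment libraries left out 4 were called, GATA1 with GATA2, LDB1 and NFE2, when 355 of 18304 genes were called. A fit of these groups alone called 6, adding KLF1 and GFI1B to those, when 1162 of 16268 genes were called. KLF1 was at 148 and 184 CPM in WT Aza and at 108 and 131 CPM in WT DMSO (log2 0.47, SE 0.16, adjusted p = 0.368, edgeR; adjusted p = 0.0476, DESeq2). Groups did not overlap for 7 of the 10 members, where 36.3% of all tested genes did not overlap.

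Compared directly, Aza at 264 h against Aza at 72 h ran opposite to the 72 h response. In KO 3 members rose (CBFA2T3 1.38, ZFPM1 0.53, GATA2 0.39) and 5 fell (GFI1B -0.99, NFE2 -0.71, TAL1 -0.64, KLF1 -0.63, GATA1 -0.31), with adjusted p of 7.21e-12 to 0.0128 (edgeR; 20.5% of all genes called, 9.79% higher and 10.7% lower). In WT 2 rose (CBFA2T3 1.13, ZFPM1 0.61) and 3 fell (GFI1B -0.64, NFE2 -0.59, TAL1 -0.50), with adjusted p of 2.05e-10 to 0.00119 (edgeR; 20.4% called, 10.3% higher and 10.1% lower). Groups did not overlap for 9 of the 10 members in each genotype, beside 49.7% of all tested genes in KO and 56.3% in WT. The KO and WT counts rest on Aza libraries that also enter the comparisons with DMSO, so the opposite signs are not separate evidence. The KO calls of GATA1, GATA2 and KLF1 were lost without F4, without A12 and when the failed library was added, and those of GATA1 and KLF1 also without the clone term. The KO call of GFI1B was lost without A12. In WT the calls of NFE2 and GFI1B were lost when the failed library was added (adjusted p = 0.0544 and 0.0519, edgeR). With the WT pre-treatment libraries left out LMO2 was also called in KO, and GATA2 and LMO2 in WT. In that setting 4812 of 18304 genes were called in KO and 4787 in WT. LDB1 stayed near its 72 h level in Aza, at 309 and 387 CPM against 328 and 431 CPM in KO (log2 -0.12, adjusted p = 0.34, edgeR) and at 371 and 410 CPM against 381 and 436 CPM in WT (log2 -0.06, adjusted p = 0.665, edgeR).

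Vehicle culture moved few members. From 264 h minus 72 h in DMSO, KO cells had GFI1B higher (log2 0.45, SE 0.10, adjusted p = 0.0156, edgeR) and GATA2 higher (log2 0.27, SE 0.07, adjusted p = 0.0444, edgeR), beside 4.68% of all genes called either way and 2.74% called higher. Groups did not overlap for 1 member in KO and 3 in WT, beside 5.96% and 35.6% of all tested genes. GFI1B was at 37, 37.2, 54.2 and 55.6 CPM at 264 h against 29.6, 37.3 and 37.9 CPM at 72 h, and the groups overlapped, with batch 1 below batch 2 at each time. Leaving out F4 or A12, using batch 1 libraries only or adding the failed library ended both calls, and dropping the clone term ended that of GATA2. In WT 0 of 10 were called (edgeR; 0.00544% of all genes, 1511 with an unadjusted p under 0.05; DESeq2 also called 0).

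Whether Aza acted differently on the members in KO and WT was tested as an interaction at each time, and 0 of 10 members were called at either time (edgeR and DESeq2; 0% of all genes called by edgeR, with 631 genes at 72 h and 571 at 264 h under an unadjusted p of 0.05). At 72 h the KO minus WT difference of the Aza effect was furthest from 0 for KLF1, at 0.41 (SE 0.23), and CBFA2T3, at -0.30 (SE 0.11), and at 264 h for GFI1B, at -0.44 (SE 0.18), each with an adjusted p of 1 (edgeR). KLF1 without A12 had an interaction of -0.05.

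KO was compared with WT in 4 conditions of batch 1, with 2 libraries per genotype each, and 0 of 10 members were called in any (edgeR). The background before treatment was 0.0543% of genes called, with 1322 genes under an unadjusted p of 0.05. With Aza it was 0.190% (1566 genes) at 72 h and 0.0488% (1909 genes) at 264 h, and for the later DMSO harvest 0.208% (1827 genes). GATA2 and KLF1 kept 1 order in these 4 conditions, and groups did not overlap for 4 members before treatment, 5 in each Aza condition and 7 in the DMSO one. GATA2 was at 812 and 846 CPM in KO before treatment against 751 and 584 CPM in WT, and at 569 and 584 CPM against 426 and 407 CPM in Aza at 72 h. In Aza at 264 h it was at 717 and 797 CPM in KO and 460 and 494 CPM in WT, and in DMSO at 264 h at 689 and 821 CPM in KO and 526 and 601 CPM in WT. KO libraries were the higher ones in each condition with no overlap, where 37.3%, 40.3%, 44.3% and 44.4% of all tested genes did not overlap (pre-treatment, Aza 72 h, Aza 264 h and DMSO 264 h). The log2 differences were 0.32, 0.46, 0.67 and 0.43 in that order of conditions, with adjusted p of 0.555, 0.0692, 0.0815 and 0.251 (edgeR).

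KLF1 ran the other way. It was at 92 and 79.6 CPM in KO before treatment against 128 and 110 CPM in WT, at 146 and 167 CPM against 185 and 216 CPM in Aza at 72 h, at 105 and 98.7 CPM against 148 and 184 CPM in Aza at 264 h, and at 87.8 and 68.6 CPM against 108 and 131 CPM in DMSO at 264 h. In batch 1 KO libraries were the lower ones each time with no overlap. The batch 2 KO DMSO libraries at 264 h, at 124 and 109 CPM, lay within the WT values, and at 72 h KO DMSO, at 59.9, 77.2 and 114 CPM, overlapped WT DMSO, at 90.4 and 127 CPM. The log2 differences were -0.46, -0.36, -0.70 and -0.60, with adjusted p of 0.228, 0.327, 0.1 and 0.248 (edgeR). DESeq2 called GATA2 in the Aza conditions (adjusted p = 0.000611 at 72 h and 6.18e-07 at 264 h, DESeq2) and in the DMSO one (adjusted p = 0.0421, DESeq2). At 264 h it also called KLF1 with Aza (adjusted p = 0.000174, DESeq2) and with DMSO (adjusted p = 0.0142, DESeq2), and LMO2 with DMSO (adjusted p = 0.0429, DESeq2).

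Averaged over the 3 post-treatment conditions in which all 4 clones have a batch 1 library (Aza at both times and DMSO at 264 h), GATA2 was at 658 CPM in F4 and 734 CPM in A12 against 471 CPM in A7 and 501 CPM in C4. KLF1 was at 113 and 111 CPM in the KO clones against 147 and 177 CPM in the WT clones, and LMO2 at 168 and 173 CPM against 194 and 213 CPM. GFI1B was at 50.8 and 47.5 CPM in the KO clones against 41.2 and 42.9 CPM in the WT clones. For these 4 members the KO clones lay on 1 side of both WT clones. So did CBFA2T3, at 93.7 and 106 CPM in the KO clones against 90.3 and 89.1 CPM in the WT clones, and ZFPM1, at 67 and 65.2 CPM against 67.6 and 73.4 CPM, by narrow margins, while the TAL1, NFE2, GATA1 and LDB1 means of the genotypes interleaved. These means cover 2 clones per genotype and no test was made of them. Genes within 2 Mb of GATA2 and KLF1 had median KO minus WT log2 values of -0.03 to 0.02 in the 4 conditions.

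**Figure D5:**
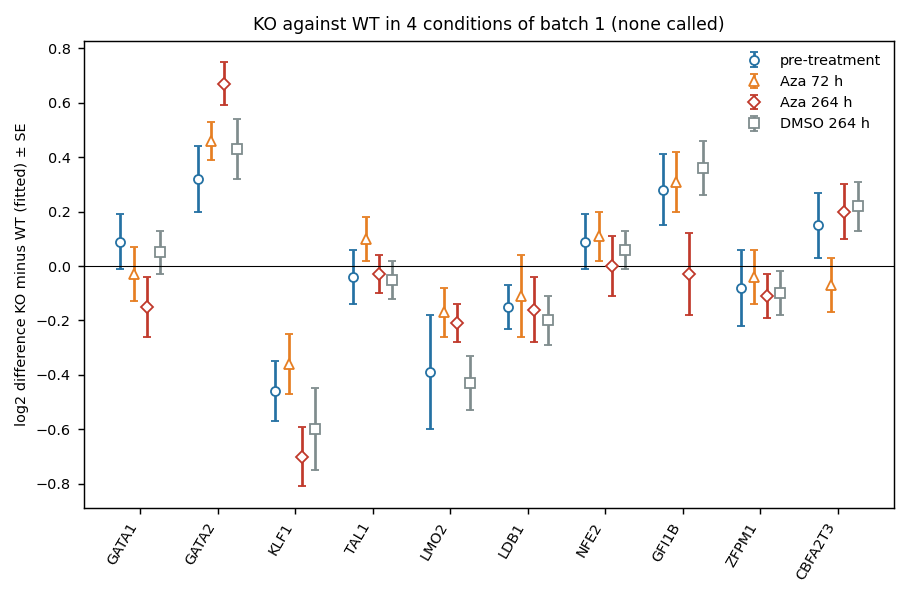
Fitted log2 difference KO minus WT with its SE for each member in 4 conditions of batch 1, open symbols because none was called. GATA2 lies above 0 in all 4 conditions, at 0.32 to 0.67, and KLF1 below 0 in all 4, at -0.70 to -0.36.

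Genes that the network is known to act on were counted at 72 h, when 11.6% of all genes were called higher in KO and 9.26% in WT. Of 12 heme and iron genes 7 rose in KO and 7 in WT with 0 lower in either (medians 0.35 and 0.42), among them the mitochondrial iron importer SLC25A37 at 151 CPM in KO Aza and 74.3 CPM in KO DMSO (log2 1.06, SE 0.09) and 1.16 on the log2 scale in WT. Of 29 tested red cell membrane and enzyme genes 16 rose and 2 fell in KO, and 13 rose and 2 fell in WT (medians 0.69 and 0.50). AQP1, the red cell water channel, was at 14.4 CPM in KO Aza against 1.76 CPM in KO DMSO and at 14.7 CPM in WT Aza against 3.2 CPM in WT DMSO. Of 9 tested genes of the globin list, which includes AHSP, the chaperone of alpha-globin, 5 rose in KO and 2 in WT, with 0 lower.

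At 264 h, Aza minus DMSO called 3 of 9 globin-list genes higher in KO (median 2.01) and 4 of 9 in WT (median 1.80), with 0 lower. Of all genes 0.0979% were called either way in KO and 0.500% in WT. HBE1, the embryonic epsilon-globin, was at 7 CPM in KO Aza and 0.394 CPM in KO DMSO (log2 4.11, SE 0.41, adjusted p = 9.09e-05, edgeR). HBB, adult beta-globin, was at 139 CPM in WT Aza and 39.8 CPM in WT DMSO (log2 1.80, SE 0.33, adjusted p = 0.0428, edgeR). At that time 0 of 12 heme and iron genes and 0 of 29 membrane and enzyme genes were called in KO (edgeR). With so few genes called in KO, these counts of 0 do not set the lists apart from other genes. In WT 2 heme and iron genes were called higher, and 4 membrane and enzyme genes higher and 1 lower.

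Of 32 tested E-protein, LDB1 and corepressor partners 3 rose and 14 fell in KO at 72 h (median -0.16), and 3 rose and 12 fell in WT (median -0.14), beside 8.47% of all genes called lower in KO and 9.04% in WT. The others were not called. SSBP2, a single-stranded DNA binding protein that stabilises LDB1, was at 5.05 CPM in KO Aza against 12.1 CPM in KO DMSO (log2 -1.37, SE 0.14) and at 5.43 CPM in WT Aza against 12.5 CPM in WT DMSO (log2 -1.20, SE 0.13). CTBP2, a corepressor, fell by 0.78 on the log2 scale in each genotype. LMO4, a LIM-only relative of LMO2, rose, at 135 CPM in KO Aza against 54.8 CPM in KO DMSO and at 120 CPM in WT Aza against 66.4 CPM in WT DMSO. In the Aza comparison of 264 h with 72 h, 15 of the 32 partners rose and 3 fell in each genotype. Of all genes 9.79% were called higher and 10.7% lower in KO, and 10.3% and 10.1% in WT. The Aza libraries at 72 h enter both comparisons, so the opposite direction is not separate evidence.

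The next lists were also counted in Aza against DMSO at 72 h. Of all genes then 11.6% were called higher and 8.47% lower in KO, and 9.26% and 9.04% in WT. Of 7 tested NFE2 partners 2 rose in KO and 3 in WT with 0 lower. They included BACH1, a competitor of NFE2 for its small Maf partners (log2 0.42 in KO and 0.35 in WT), and MAFF, a small Maf protein (0.64 and 0.78). Of 14 tested GATA and KLF relatives 6 rose and 1 fell in KO, and 3 rose and 1 fell in WT; KLF12, a repressor of the family, fell by 0.83 in KO and 0.87 in WT on the log2 scale. Among 21 factors of progenitors and other blood lineages 10 rose and 3 fell in KO, and 8 rose and 2 fell in WT. CEBPE, a granulocyte factor, rose most (log2 4.59 in KO and 4.20 in WT), from low DMSO levels of 0.783 CPM in KO and 0.477 CPM in WT. KIT, the stem cell factor receptor, rose in both (1.53 and 0.91).

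Markers of other cell types also had calls at 72 h. Of all genes 11.6% were called higher and 8.47% lower in KO, and 9.26% and 9.04% in WT. Of the 10 erythroid markers 5 rose in KO and 2 in WT, with 0 lower. Of listed megakaryocyte markers 3 of 8 tested rose in KO and 6 of 8 in WT, with summed levels of 723 to 768 CPM in KO Aza against 597 to 732 CPM in KO DMSO and 661 to 729 CPM in WT Aza against 541 to 562 CPM in WT DMSO; GP1BB was at 0 in all of these groups. Of mast cell and basophil markers 4 rose and 2 fell of 8 in KO, and 3 rose and 1 fell in WT, with sums of 134 to 141 CPM in KO Aza against 125 to 160 CPM in KO DMSO and 61.3 to 64.4 CPM in WT Aza against 86.4 to 89.1 CPM in WT DMSO. Eosinophil markers summed to 4.21 to 8.22 CPM in KO Aza against 1.24 to 2.09 CPM in KO DMSO (3 of 5 higher) and to 2.02 to 4.88 CPM in WT Aza against 1.53 to 1.76 CPM in WT DMSO (0 of 5 called). Granulocyte and monocyte markers had 2 higher and 1 lower of 7 in each genotype. Their sums were lower in Aza with no overlap, at 93 to 106 CPM in KO Aza against 111 to 118 CPM in KO DMSO. In WT the sums were 88.4 to 94.9 CPM in Aza and 114 to 119 CPM in DMSO. Non-blood markers had 3 of 5 higher in each genotype, and lymphoid markers 0 of 5 called in either (edgeR). The part of other cell types in the members' values was not tested.

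Genes whose levels ran most like those of the members over the 25 libraries were named from the highest Pearson r of log2 CPM among 17684 genes with a symbol. CBFA2T3 was matched most closely, by COL23A1 and MAD1L1 (r 0.98 each), and GATA2 by NPPC (0.96). ZFPM1 ran with INTS1 (0.95), TAL1 with DYRK3 (0.94), NFE2 with CXXC5 (0.94), and KLF1 with PRKAB1 (0.92). GATA1 ran with LRWD1, LMO2 with LINC01133 (0.92 each), GFI1B with HHEX (0.91) and LDB1 with CA1 (0.87). Between members, NFE2 ran closest to GATA1 (r 0.90), and CBFA2T3 ran opposite to TAL1 (-0.88). The libraries come from 4 clones and share treatments, so these values describe this set of libraries.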

How the data were processed

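RNA was sequenced from TF-1 clones in 26 libraries, of which 25 passed quality control. Per the labels, a TruSeq stranded mRNA kit was used. The deposited values are raw read counts per gene. Per the file headers, the authors made them with featureCounts 1.6.2 from paired reads on GENCODE release 19 exons, with no strand option. STAR 2.6.1d, cutadapt, FastQC, DESeq2 and hg19 are named per the submitters' processing notes. CPM came from TMM library sizes (log2 CPM with prior count 2). Genes were filtered with filterByExpr and tested with edgeR 4.0.16 (robust quasi-likelihood; R 4.3.3) in a shared model of groups, clone and batch. KO against WT was fitted per condition in batch 1. An SE is the log2 difference divided by the square root of F. DESeq2 1.42.0 was an alternative, among 13 settings for the shared model. All 14 comparisons name all 10 members; from each list, the text draws on called genes with the 3 largest differences. Libraries are paired by clone, since a clone name marks the same cells; the correlations stand in the results. Scripts were tested on simulated counts. Members, lists and motifs were chosen with earlier results of these data known. Protein sequences were not used here.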

Additional observations from a re-analysis of the deposited data

How the results depend on the processing

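No member difference that was called reversed under any setting. At 72 h in Aza against DMSO, 9 members were called in KO and 9 in WT; leaving out a clone gave 3 to 9 in KO, where 3 (NFE2, GFI1B and CBFA2T3) remained without A12, and 8 to 9 in WT. For Aza against DMSO at 264 h in KO (0 called), DESeq2 called 1, no filter on low counts 3, a fit of those groups alone 3, the WT pre-treatment libraries left out 1, and their clone labels exchanged (chosen after seeing the data) 1; leaving out a clone gave 0 to 1. In WT (1 called) these settings gave 2, 5, 6, 4 and 4, no replicate block 0, the failed library added 0, and leaving out a clone 0 to 1. For Aza at 264 h against 72 h, KO (8 called) gave 5 with the failed library and 4 to 9 without a clone; WT (5 called) gave 8 with no filter, 3 with the failed library, 9 in a fit of those groups alone and 5 to 7 without a clone. For DMSO at 264 h against 72 h, KO (2 called) gave 1 with no replicate block, 0 in batch 1 only, 0 with the failed library and 0 to 2 without a clone; WT (0 called) gave 3 in a fit of those groups alone. For KO against WT (0 called in 4 conditions), no filter called 3 before treatment, 2 in each Aza condition (72 h, 264 h) and 4 in DMSO at 264 h; DESeq2 called 1, 2 and 3 in the last 3 of these. Leaving out a clone gave 0 to 1 before treatment, 0 to 1 and 0 to 2 in Aza at 72 h and 264 h, and 0 to 2 in DMSO. The clone block changed no other count by over 1.5 times. Fits without a clone leave 1 library in an arm, which is then assumed to vary like the others. The cause of these moves was not tested. In all, 115 counts kept within 1.5 times and 42 did not.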

Other observations

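The 2 KO libraries of batch 2 labelled as both pre-treatment and DMSO entered no comparison. ZFPM1 was at 105 and 103 CPM in them, above every other library, against 66.5 and 69.4 CPM in the batch 1 KO libraries before treatment. GATA2 was at 918 and 990 CPM in these libraries and at 812 and 846 CPM in the batch 1 ones, and GATA1 at 109 and 101 CPM against 78.8 and 88.1 CPM. TAL1 and GFI1B were nearly level between them, at 248 and 247 CPM against 254 and 252 CPM, and at 47.7 and 45.4 CPM against 45.7 and 47.3 CPM. Batch and label differ together here and cannot be told apart.

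The library that failed quality control, KO clone F4 in DMSO at 72 h, held 30621931 counts. Its GATA1 was at 161 CPM, above all 25 passing libraries, and its LDB1 at 183 CPM and TAL1 at 209 CPM, below all of them. CBFA2T3, at 96.8 CPM, lay below every KO DMSO library (114 to 144 CPM), and ZFPM1, at 67.3 CPM, within their range.

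Of the WT pre-treatment libraries, that labelled A7 had GATA2 at 751 CPM, above every later WT library, and that labelled C4 had 584 CPM, within the later WT range of 407 to 601 CPM. For LMO2 they were at 220 CPM (A7), within the later range of 157 to 260 CPM, and 150 CPM (C4), below it. After treatment C4 was above A7 for LMO2 in each of the 4 conditions, the reverse of this order.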
